A study of Mus musculus with 37 samples.

Results

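Notch signalling was described in the mouse mammary gland through 10 genes: 4 receptors (Notch1, Notch2, Notch3 and Notch4), 3 ligands (Dll4, Jag1 and Jag2), 2 target genes (Hey1 and Hes1) and 1 DNA-binding transcription factor (Rbpj). The genes were taken by symbol, as the probe set annotated with that symbol alone and, for Rbpj, which had 2 such probe sets, the one with the higher mean over all arrays. All 10 were found among 18820 named genes, and all 10 passed the filter on low values that left 13174 genes for testing. RNA of the intact inguinal gland was hybridised to 37 Affymetrix arrays, 1 per sample, from female BALB/c mice (BALB/cJ stock) whose opposite inguinal gland had been cleared earlier. At 10 weeks of age the mice received 100 cGy of sparsely ionizing gamma rays (9 arrays), 30 cGy of densely ionizing silicon ions (Si, 350 MeV/amu; 9 arrays), 10 cGy of the same ions (9 arrays) or sham irradiation (10 arrays). Glands were taken 1, 4 and 12 weeks later, at 11, 14 and 22 weeks of age, with 3 arrays in each of the 12 groups except sham at week 4, which had 4. Mice of week 1 were sampled where they had been exposed, whereas those of weeks 4 and 12 had first travelled back to their home facility, so weeks after exposure, age, transport and site cannot be told apart.

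Notch receptors are single-pass membrane proteins that are activated by Delta-like and Jagged ligands on a neighbouring cell. Binding exposes the receptor to ADAM metalloproteases and then to gamma-secretase, and the freed intracellular domain enters the nucleus, joins RBPJ and Mastermind-like coactivators, and switches on genes such as the Hes and Hey repressors. In the mammary gland the pathway is known for its part in luminal cell fate. In blood vessels, DLL4 and NOTCH4 are made mainly by endothelial cells, and NOTCH3 mainly by the smooth muscle cells and pericytes that surround them.

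Promoter windows are shown for the member with the largest difference between weeks, for the ligand beside it, and for the DNA-binding factor of the pathway. Each window holds the 250 bases before an annotated start, taken from RefSeq (GRCm38.p6) and printed 5′ to 3′ on the gene's strand, and capitals mark a match to a searched motif.
Notch4 (chr17:34564045-34564294, + strand): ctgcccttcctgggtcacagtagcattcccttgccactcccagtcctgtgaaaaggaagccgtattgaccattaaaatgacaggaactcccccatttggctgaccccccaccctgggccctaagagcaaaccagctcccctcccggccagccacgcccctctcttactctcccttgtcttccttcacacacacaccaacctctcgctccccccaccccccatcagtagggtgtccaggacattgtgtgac
Dll4 (chr2:119325534-119325783, + strand): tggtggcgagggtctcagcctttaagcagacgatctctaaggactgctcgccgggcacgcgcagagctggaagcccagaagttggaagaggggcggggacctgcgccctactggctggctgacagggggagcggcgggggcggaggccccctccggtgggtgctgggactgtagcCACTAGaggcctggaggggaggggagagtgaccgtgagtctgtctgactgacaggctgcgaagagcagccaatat
Rbpj (chr5:53590096-53590345, + strand): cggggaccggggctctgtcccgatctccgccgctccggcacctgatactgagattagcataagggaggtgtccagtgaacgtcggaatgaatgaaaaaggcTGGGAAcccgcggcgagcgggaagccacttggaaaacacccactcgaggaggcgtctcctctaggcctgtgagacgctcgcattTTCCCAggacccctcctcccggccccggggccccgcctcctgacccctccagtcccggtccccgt
The motifs searched on both strands were TGGGAA, the core that RBPJ binds, and CACGTG and CACNAG, the E-box and N-box that Hes and Hey proteins bind. The Notch4 window held none of the 3 motifs. The Dll4 window held 1 CACNAG match, 75 bases before the start. The first of the 2 Rbpj windows held 2 TGGGAA matches, at 149 and 65 bases before the start. Of the other members, Notch1 and Notch2 each had 1 CACNAG match, Notch3 had 2, and Jag1 and Jag2 had none. Sequences were matched for 8 of the 10 members, the exceptions being Hes1 and Hey1. Among 32851 promoter windows of the same length, 21.6% held TGGGAA, 6.02% held CACGTG and 36.7% held CACNAG. A match describes the letters of the window and says nothing of binding.

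All values are log2 RMA values, so a difference of 1 is a 2-fold difference, and differences are given ± standard error of the limma fit (SE). A member was called changed at a Benjamini-Hochberg adjusted p under 0.05 over all 13174 genes. The number of arrays limits the precision, and the labels do not say that replicate arrays came from separate mice, so p-values measure the spread between arrays, which may be technical. In whole glands, fewer cells of a type and less RNA per cell cannot be told apart. Arrays correlated at 0.949 to 0.994 with each other; 2 sham arrays, the third of week 1 and the first of week 4, stood farthest from the rest (medians 0.970 and 0.971). Epithelial and fat markers were present throughout: the mean level of 11 luminal epithelial markers lay between 7.88 and 9.19, and that of 7 adipocyte markers between 10.997 and 11.700. Lymphocyte and skeletal muscle markers varied far more between arrays, with mean levels of 4.31 to 8.73 and 4.42 to 10.3.

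The 4 receptors and the ligand Dll4 were lower at week 4 than at week 1: Notch4 and Dll4 by 0.77 and 0.61 on the log2 scale, and Notch3, Notch1 and Notch2 by 0.33, 0.24 and 0.17. None of the 10 was called higher. Jag1, Jag2, Hey1, Hes1 and Rbpj did not pass the test. These differences are means over the 4 treatments, with 13 arrays of week 4 and 12 of week 1. Of all genes tested, 25.8% were called in this comparison, 14.8% lower and 11% higher. At an unadjusted p under 0.05, 6 members and 36.4% of all genes passed. The median difference of the 10 members was -0.11, against -0.0034 over all genes.

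**Figure D1:**
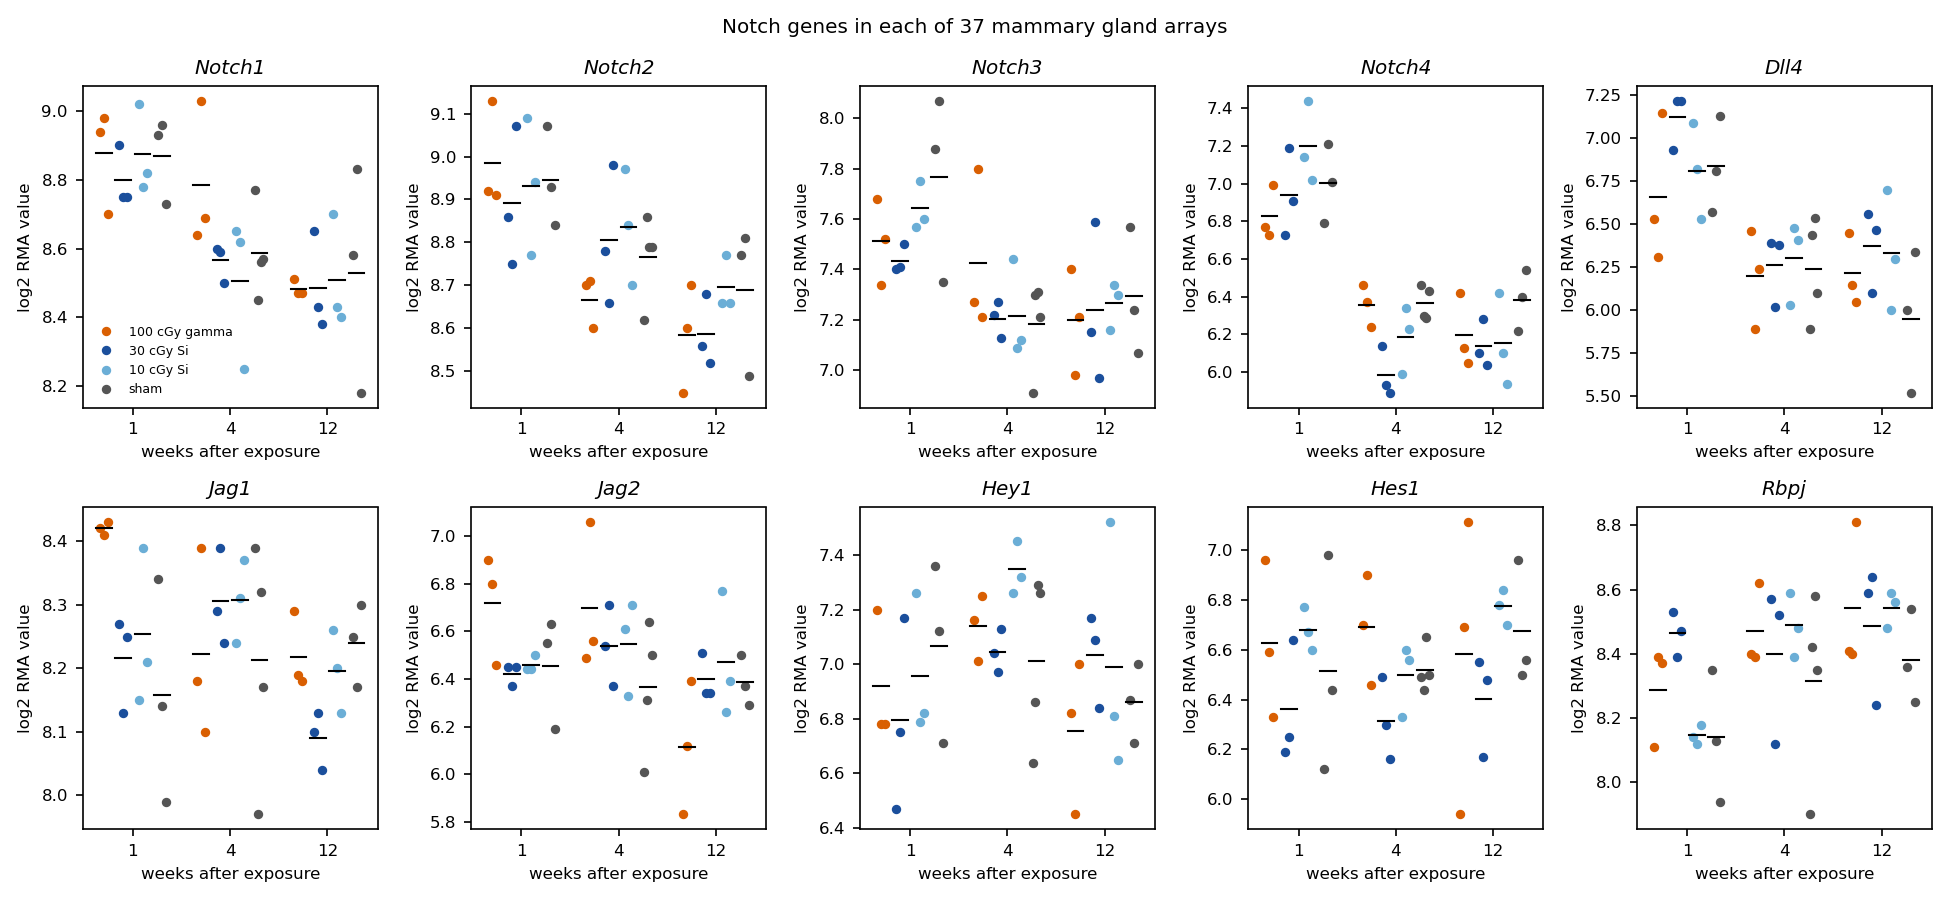
Log2 RMA values (vertical axes, a separate scale per gene) of the 10 Notch genes in each of the 37 arrays, by weeks after exposure, with 100 cGy gamma, 30 cGy Si, 10 cGy Si and sham from left to right within a week. Points are arrays and bars are group means. The 12 Notch4 values of week 1, from 6.73 to 7.44, all lie above the week 4 and week 12 values, which reach 6.46 and 6.54.

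Notch4, the endothelial receptor (probe set 10444352), showed the widest separation. Its lowest, median and highest values were 6.73, 7.0 and 7.44 at week 1, 5.89, 6.29 and 6.46 at week 4, and 5.94, 6.17 and 6.54 at week 12. Every week 4 array and every week 12 array was below every week 1 array. Notch4 was the 1 member of 10 with no overlap between the arrays of weeks 4 and 1, which held for 1.45% of all genes, and the 1 member whose arrays of weeks 4 and 12 together did not overlap those of week 1, which held for 0.881%. The difference between weeks 4 and 1 was -0.77 ± 0.070 (1.70-fold lower, adjusted p = 5.79e-09). In each treatment the level was lower at week 4, at 6.36 ± 0.11 against 6.83 ± 0.14 at week 1 after gamma rays and at 5.99 ± 0.13 against 6.94 ± 0.23 after 30 cGy Si (SD, n = 3 each). After 10 cGy Si the Notch4 level was 6.19 ± 0.18 at week 4 against 7.20 ± 0.21 at week 1 (SD, n = 3 each).

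Dll4, the Delta-like ligand of endothelial cells (probe set 10474958), had the next largest difference. Its lowest, median and highest values were 6.31, 6.87 and 7.22 at week 1, 5.89, 6.38 and 6.54 at week 4, and 5.52, 6.22 and 6.70 at week 12. The weeks overlapped: the highest arrays of week 4 reached into the lower part of the week 1 range. The difference between weeks 4 and 1 was -0.61 ± 0.11 (1.52-fold lower, adjusted p = 0.000212). Dll4 also varied widely among arrays of one group, with values of 6.53, 6.31 and 7.15 after gamma rays at week 1.

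Notch3 (probe set 10449775) ranged from 7.34 to 8.07 with a median of 7.55 at week 1. Its range was 6.91 to 7.80 with a median of 7.22 at week 4, and 6.97 to 7.59 with a median of 7.22 at week 12. The weeks overlapped, and 1 gamma-irradiated array of week 4 lay above most arrays of week 1. The difference between weeks 4 and 1 was -0.33 ± 0.087 (adjusted p = 0.00511). Notch1 and Notch2, the broadly expressed receptors, had smaller differences. Notch1 (probe set 10481056) had medians of 8.86, 8.60 and 8.47 at weeks 1, 4 and 12, and differed by -0.24 ± 0.067 between weeks 4 and 1 (adjusted p = 0.0074). Notch2 (probe set 10494595) had medians of 8.92, 8.78 and 8.66 at weeks 1, 4 and 12, and differed by -0.17 ± 0.054 between weeks 4 and 1 (adjusted p = 0.0194). For both, the arrays of weeks 4 and 1 overlapped.

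Ordered by mean level over the 12 groups, each of these 5 genes had the 4 week 1 groups as its 4 highest. Neighbours in the order were rarely separated: in Dll4, Notch1, Notch2 and Notch3 all 11 pairs of neighbouring groups overlapped, and in Notch4 10 of 11 did. The Notch4 order began with 10 cGy Si at week 1 (7.20 ± 0.21) and ended with 30 cGy Si at week 4 (5.99 ± 0.13; SD, n = 3 each). The Dll4 order began with 30 cGy Si at week 1 (7.12 ± 0.17) and ended with sham at week 12 (5.95 ± 0.41; SD, n = 3 each).

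Between weeks 12 and 4 no member was called as the mean over treatments, and 1.64% of all genes were, 0.941% lower and 0.698% higher. At an unadjusted p under 0.05 there were 3 members, where 15.9% of all genes passed: Notch2 with -0.13 ± 0.054 (adjusted p = 0.228), Jag2 with -0.19 ± 0.084 (adjusted p = 0.243) and Hey1 with -0.22 ± 0.10 (adjusted p = 0.278). Set directly against week 1, week 12 was lower in the same 5 members, by 0.77 in Notch4, 0.64 in Dll4, 0.35 in Notch1, 0.34 in Notch3 and 0.30 in Notch2, with adjusted p from 4.86e-09 to 0.00331. Rbpj rose by 0.23 ± 0.074 (adjusted p = 0.017). In this comparison, added after the data had been seen, 35.5% of all genes were called. It shares its week 1 arrays with the comparison of weeks 4 and 1.

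Rbpj, which binds DNA for all 4 receptors (probe set 10521913), had medians of 8.27, 8.42 and 8.51 at weeks 1, 4 and 12. Its arrays overlapped widely between weeks, and the difference between weeks 4 and 1 was 0.16 ± 0.073 (adjusted p = 0.114). The other Rbpj probe set had a mean of 5.07, near the array medians of 5.04 to 5.25. Its correlation with the one used was 0.242 over the 37 arrays, so the 2 probe sets moved together only weakly. The ligands Jag1 (probe set 10488060) and Jag2 (probe set 10402808), both of the Serrate type, had medians of 8.26, 8.29 and 8.18 and of 6.46, 6.54 and 6.36 at weeks 1, 4 and 12. The repressors Hey1 (probe set 10497203) and Hes1 (probe set 10434925) had medians of 6.81, 7.16 and 6.86 and of 6.59, 6.49 and 6.63. The 95% interval of the difference between weeks 4 and 1 ran from -0.10 to 0.10 in Jag1, from -0.15 to 0.20 in Jag2, from -0.01 to 0.41 in Hey1 and from -0.26 to 0.18 in Hes1. In none of these 4 genes were the week 1 groups together at an end of the order of group means.

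In sham glands alone, 2 members were lower at week 4 than at week 1, Notch4 and Notch3, where 5.88% of all genes were called, 3.95% lower and 1.93% higher. These arrays are part of the mean over treatments. Notch4 had 6.46, 6.30, 6.29 and 6.43 at week 4, against 6.79, 7.21 and 7.01 at week 1, without overlap, a difference of -0.64 ± 0.13 (adjusted p = 0.00541). Notch3 had 6.91, 7.30, 7.31 and 7.21 at week 4, against 7.88, 8.07 and 7.35 at week 1. All 4 week 4 values of Notch3 were below the 3 of week 1, by a narrow margin from the third replicate, and the Notch3 difference was -0.59 ± 0.16 (adjusted p = 0.031). The Notch3 call was lost without sham week 1 replicate 1 or 2 or sham week 4 replicate 1 (adjusted p = 0.135, 0.186 and 0.095), and both calls were lost when the sham arrays of these weeks were fitted alone, with adjusted p of 0.313 for Notch4 and 0.373 for Notch3, where 0% of all genes were called. Notch4, Notch3 and Dll4 were the 3 members whose sham arrays of weeks 4 and 1 did not overlap, which held for 13.7% of all genes. Dll4 differed by -0.59 ± 0.22 (adjusted p = 0.101) and Notch1 by -0.28 ± 0.13 (adjusted p = 0.196). Without the 2 arrays least like the others, both of them sham, the Dll4 difference was -0.33 (adjusted p = 0.452). Between weeks 12 and 4 in sham glands no member was called, and 0% of all genes were, while 6.11% had an unadjusted p under 0.05, none of them a member.

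In irradiated glands alone, a comparison added after the data had been seen, Notch4, Dll4 and Notch1 were lower at week 4 than at week 1, by 0.81, 0.61 and 0.23 (adjusted p = 6.86e-08, 0.00155 and 0.036), and 20.9% of all genes were called. Notch2 differed by -0.17 (adjusted p = 0.0587) and Notch3 by -0.25 (adjusted p = 0.084). Whether the change between weeks differed between irradiated and sham glands was covered by a moderated F test over the 6 differences of an irradiation effect between weeks, which called 0 members and 0 genes. The smallest unadjusted p among the members was 0.0964, in Notch4, with an adjusted p of 1.00 for every member, and 3.96% of all genes had an unadjusted p under 0.05.

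**Figure D2:**
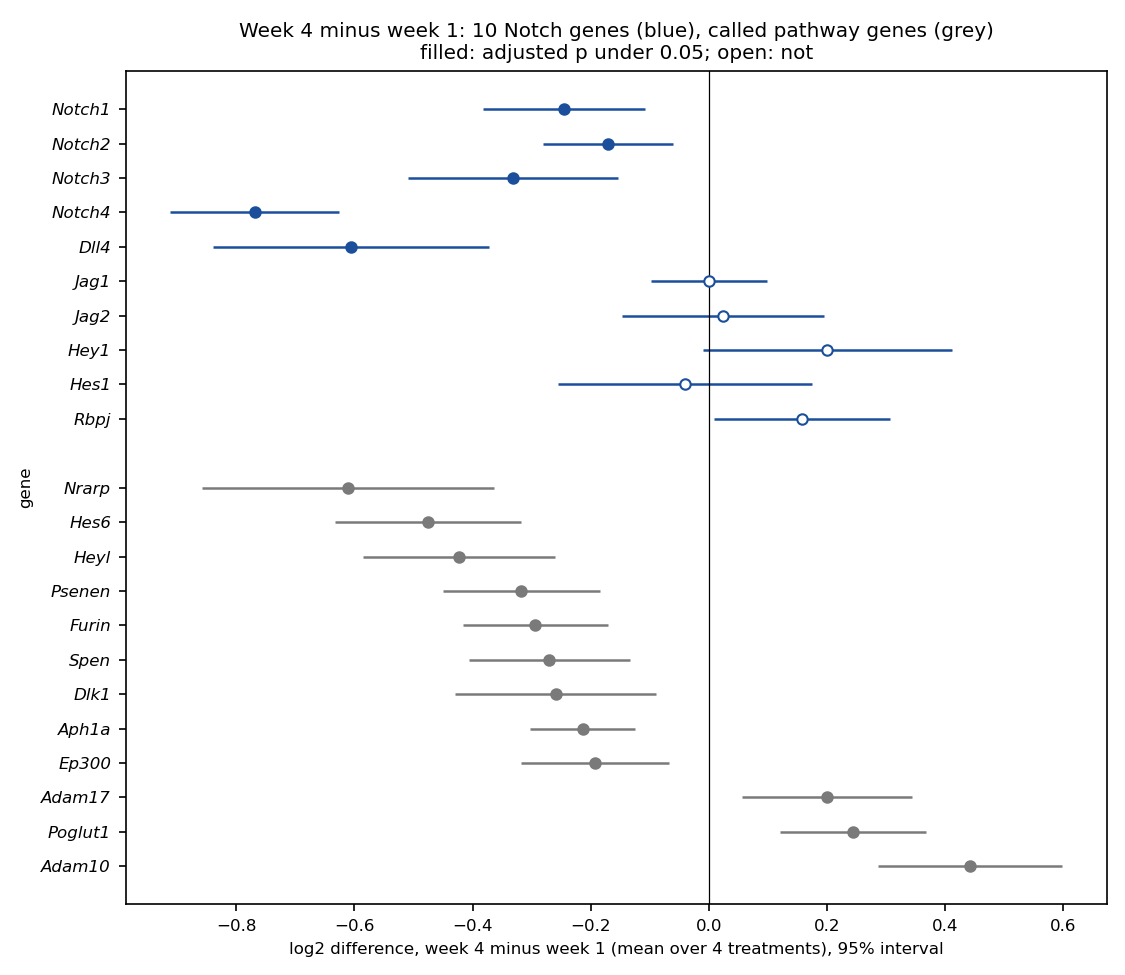
Log2 difference, week 4 minus week 1, as the mean over 4 treatments with its 95% interval, for the 10 Notch genes (blue) and the 12 called genes of the wider pathway list (grey). Filled points passed an adjusted p of 0.05. Notch4 at -0.77 and Dll4 at -0.61 lie farthest to the left among the 10, and Adam10 at 0.44 farthest to the right among the 12.

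Some other genes of the pathway were called between weeks. Of 40 listed, 37 had a probe set of their own and 35 passed the filter. At week 4 against week 1, over all treatments, 9 were lower and 3 higher, where 14.8% of all genes were called lower and 11% higher. The median difference of the 35 was -0.07. Nrarp, a feedback inhibitor that Notch itself induces, was lower by 0.61, and the Hes and Hey family members Hes6 and Heyl by 0.48 and 0.42 (adjusted p = 0.000366, 3.44e-05 and 0.000213). Their mean values were low, at 5.73, 5.37 and 5.90, where array medians were 5.04 to 5.25. Hes5, Hey2, Hes1 and Hey1 of the same family were not called. The gamma-secretase subunits Psenen and Aph1a were lower by 0.32 and 0.21 (adjusted p = 0.000542 and 0.000518), and Furin, the convertase that cuts the receptor precursor, by 0.29 (adjusted p = 0.000499). Spen, a corepressor partner of RBPJ, was lower by 0.27, Dlk1, a ligand-like membrane protein, by 0.26, and Ep300, an acetyltransferase coactivator, by 0.19 (adjusted p = 0.00311, 0.0214 and 0.0196). The 3 higher genes were Adam10 and Adam17, the proteases that shed the receptor ectodomain, by 0.44 and 0.20 (adjusted p = 7.62e-05 and 0.0348), and Poglut1, which adds glucose to the receptor, by 0.24 (adjusted p = 0.00315). In sham glands alone, 4 of the 35 were lower at week 4 than at week 1, Nrarp by 0.85, Heyl by 0.60, Spen by 0.47 and Aph1a by 0.45 (adjusted p from 0.00235 to 0.0246), where 3.95% of all genes were called lower. Between weeks 12 and 4 none was called, in sham or over all treatments.

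Some markers of blood vessels were also lower at week 4 than at week 1, and others did not pass the test. Of 12 vascular endothelial markers, 6 were lower over all treatments and none was higher, where 14.8% of all genes were lower and 11% higher; these shares apply to each marker count below. They were Robo4 by 0.86, Cldn5 by 0.65, Tie1 by 0.45, Esam by 0.39, Egfl7 by 0.23 and Cdh5 by 0.22. Pecam1 and Kdr, which also define endothelium, differed by -0.09 and -0.11 (adjusted p = 0.409 and 0.298), and Emcn by 0.16 (adjusted p = 0.112). The mean level of the 12 markers ranged from 8.25 to 8.63 at week 4 and from 8.54 to 8.84 at week 1. Of 8 mural cell markers, 3 were lower (Mcam, Cspg4 and Rgs5), and of 5 arterial markers none was called. The mean level of the mural markers ranged from 7.73 to 8.31 at week 4 and from 8.01 to 8.54 at week 1. Of 7 adipocyte markers, 3 were lower, with a mean level of 10.997 to 11.656 at week 4 and 11.329 to 11.700 at week 1. Higher were 2 of 6 macrophage markers, with a mean level of 7.85 to 9.04 at week 4 and 7.43 to 8.71 at week 1, and 3 of 5 mast cell markers, with 6.81 to 7.24 at week 4 and 6.08 to 7.02 at week 1. The part of the fat, macrophage and mast cell levels in the member differences was not tested.

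With the mean level of the 12 endothelial markers as a covariate, 2 members remained called for week 4 against week 1 over all treatments, where 9.7% of all genes were called. Notch4 differed by -0.60 (adjusted p = 8.76e-05) and Notch2 by -0.25 (adjusted p = 0.0277). Dll4 differed by -0.44 (adjusted p = 0.0787), Notch1 by -0.21 (adjusted p = 0.182) and Notch3 by -0.18 (adjusted p = 0.38). In sham glands alone, Notch4 differed by -0.51 (adjusted p = 0.0302) with this covariate, and Notch3 by -0.47 (adjusted p = 0.124). There, 3.16% of all genes were called. The endothelial marker mean lay mostly lower at week 4 than at week 1, so that fit cannot separate it from the week. With lymphocyte, skeletal muscle, epithelial and brown adipocyte marker levels as covariates instead, the receptors and Dll4 stayed called over all treatments. Notch4, Dll4, Notch3, Notch1 and Notch2 differed by -0.77, -0.56, -0.39, -0.25 and -0.16 (adjusted p from 8.61e-08 to 0.0205), where 30.2% of all genes were called. Within single weeks, Notch4 and the endothelial marker mean had Pearson correlations of 0.412, 0.172 and 0.574 over the 12, 13 and 12 arrays of weeks 1, 4 and 12. For Dll4 they were 0.551, -0.043 and 0.497. Notch3 had within-week correlations of -0.204, 0.289 and -0.589 with the mural marker mean. With the basal epithelial marker mean, those of Notch3 were 0.592, 0.824 and 0.365. Notch4 was not tied to endothelial markers alone. It ran against the macrophage marker mean within weeks, at -0.519, -0.593 and -0.416. Against the mast cell marker mean its values were -0.529, -0.165 and -0.376. No pooled value is given for these relations, since the weeks lie apart in Notch4.

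Across arrays, 120 relations between a member and the mean of a marker list were computed. Of these, 22 had an adjusted permutation p under 0.05, of which 15 kept their sign within all 3 weeks. The permutations ran over all 37 arrays, so differences between weeks enter these p-values. The share of all genes that correlate with these lists was not computed, so the relations cannot be called particular to the members. Jag2 followed the basal epithelial markers, with r = 0.607 and Spearman's rho = 0.528 over 37 arrays (permutation test, adjusted p = 0.0016 and 0.0102), and r was 0.834, 0.820 and 0.537 within weeks 1, 4 and 12. Without the 2 arrays farthest from the median of the marker mean, r was 0.433. Jag2 also followed the fibroblast markers, with r = 0.644 and rho = 0.493 (permutation test, adjusted p = 0.000514 and 0.0161), within weeks 0.743, 0.669 and 0.465, and 0.460 without the 2 farthest arrays. Rbpj followed the macrophage markers, with r = 0.623 and rho = 0.631 (permutation test, adjusted p = 0.000514 and 0.00147), within weeks 0.741, 0.677 and 0.444, and 0.541 without the 2 farthest arrays. Notch2 ran against the brown adipocyte markers, with r = -0.562 and rho = -0.523 (permutation test, adjusted p = 0.00273 and 0.0108), within weeks -0.753, -0.248 and -0.756, and -0.502 without the 2 farthest arrays. So did Notch1 and Notch3, with r = -0.497 and -0.525 (permutation test, adjusted p = 0.0101 and 0.00797). Within weeks r was -0.63, -0.161 and -0.646 for Notch1 and -0.068, -0.547 and -0.655 for Notch3. Only some of the 15 relations are named here. All points share the 37 arrays and their normalization.

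**Figure D3:**
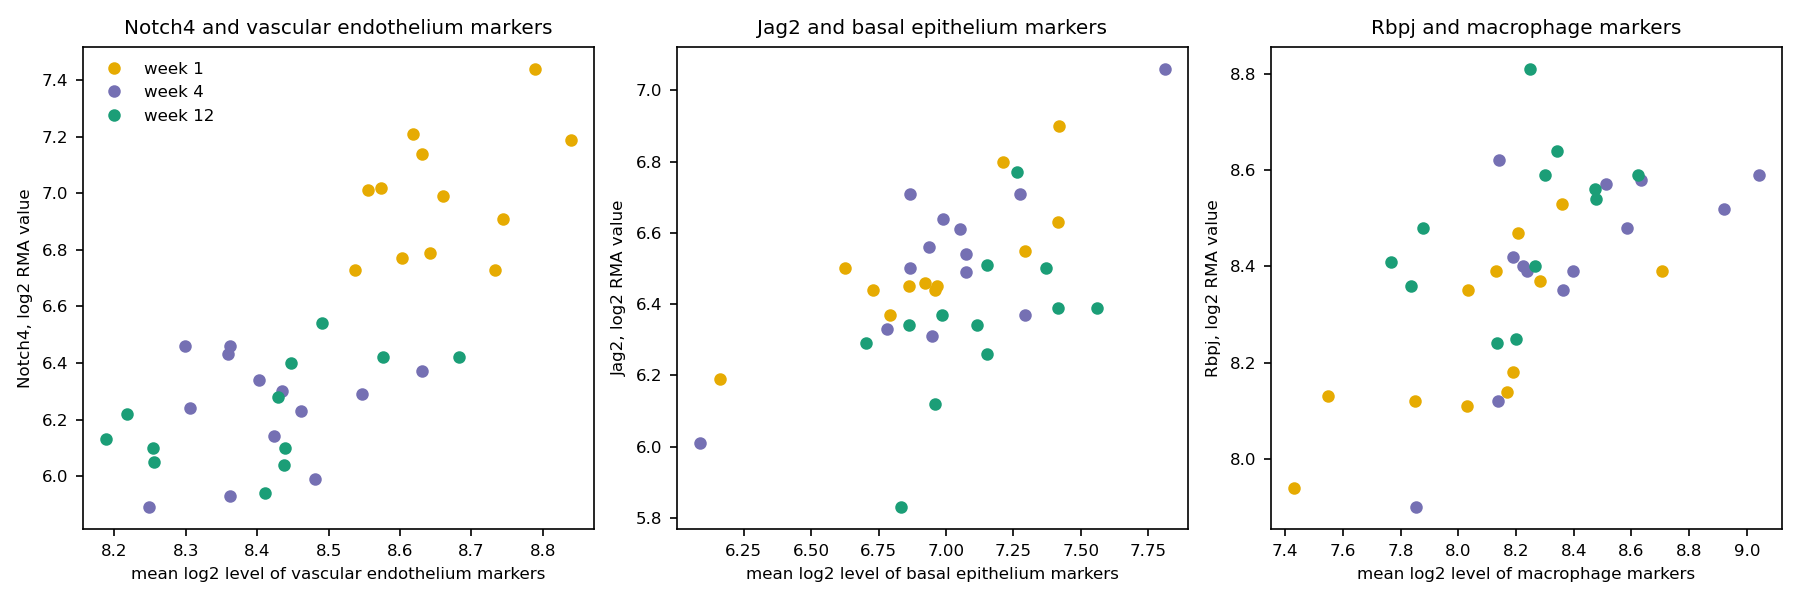
Log2 RMA value of Notch4, Jag2 and Rbpj (vertical axes) against the mean log2 level of vascular endothelial, basal epithelial and macrophage markers (horizontal axes). Each point is 1 of 37 arrays, coloured by week. The week 1 points lie apart at the top in Notch4, whereas the weeks mix in Jag2 (r = 0.607) and Rbpj (r = 0.623).

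By Pearson correlation over the 37 arrays, the non-member genes most like Notch4 were Rasip1 (0.897), Itpkb (0.881) and Gpihbp1 (0.881). Those most like Dll4 were Nos2 (0.811), Irak2 (0.802) and Psmb2 (0.797). Notch3 was most like Smtn (0.828), Crip2 (0.809) and Csrp1 (0.805), Notch1 most like Pnpla6 (0.813), Leng8 (0.812) and Rhbdf1 (0.810), and Notch2 most like Zyx (0.824), Ranbp10 (0.793) and Kcnk6 (0.791). No gene was named for more than 1 member. Jag2 was most like Bmp1 (0.752), Col1a2 (0.742) and Shc2 (0.735), and Rbpj most like Dsel (0.775), Etv1 (0.766) and Uggt2 (0.747). Hey1 was most like Lalba (0.736), Clic6 (0.689) and Rasgef1c (0.646), Jag1 most like Dennd5a (0.666), Ctif (0.644) and Ethe1 (0.644), and Hes1 most like Gm6642 (0.667), Klf10 (0.614) and Mdfi (0.579). Differences between weeks enter these values. Over deviations from the group means, the correlation of Notch4 was 0.508 with Rasip1, 0.298 with Itpkb and 0.428 with Gpihbp1. That of Dll4 was 0.626 with Nos2, 0.592 with Irak2 and 0.449 with Psmb2, and that of Jag2 with Bmp1 was 0.745.

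The design set each irradiation against sham glands of the same week, and no Notch member was called in any irradiation comparison. In the 9 comparisons of an irradiation with sham of the same week, 0 of 10 members were called. Of all genes, 0.0228% were called for gamma rays and for 30 cGy Si at week 1, 0.0835% for 10 cGy Si at week 1, and 0% in the other 6. The 90 differences of the members ranged from -0.38 to 0.43, with a median size of 0.10, and 4 had an unadjusted p under 0.05, each in another comparison. In the 5 comparisons without such a member, the share of all genes at that threshold was 2.82% for gamma rays at week 12, 5.28% for 30 cGy Si at week 12, and 5.4%, 3.17% and 4.7% for 10 cGy Si at weeks 1, 4 and 12. The half-width of their 95% intervals was 0.19 to 0.47, and the limit of an interval farthest from 0, in Dll4, was a 1.87-fold difference. A moderated F test over the 9 effects called 0 members and 0.0304% of all genes. Its smallest p among the members was that of Notch4 (adjusted p = 0.813), where 5.97% of all genes had an unadjusted p under 0.05.

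Among the receptors, Notch4 after 30 cGy Si at week 4 had the smallest unadjusted p of the 90. It had 6.14, 5.93 and 5.89 after 30 cGy Si, against 6.46, 6.30, 6.29 and 6.43 in sham glands, without overlap, a difference of -0.38 ± 0.13 (adjusted p = 0.5). At an unadjusted p under 0.05, 8.08% of all genes passed there. Over the 3 weeks the Notch4 difference for 30 cGy Si was -0.23 ± 0.080 (adjusted p = 0.222), where 14.7% of all genes passed unadjusted and 0.0304% were called. The endothelial marker mean after 30 cGy Si at week 4 ranged from 8.25 to 8.42, against 8.30 to 8.55 in sham glands. Lymphocyte and skeletal muscle markers differed by a mean of -0.90 and -1.14 in the same comparison, with none called. The luminal epithelial marker mean there ranged from 8.73 to 8.92 after 30 cGy Si, against 8.20 to 8.55 in sham glands. The basal epithelial marker mean ranged from 7.07 to 7.29, against 6.09 to 6.99. With lymphocyte, skeletal muscle, epithelial and brown adipocyte marker levels as covariates, the Notch4 difference was -0.35 (adjusted p = 0.747). Notch1, Notch2 and Notch3 had no unadjusted p under 0.05 in the 9 comparisons, with differences of -0.08 to 0.20, -0.10 to 0.07 and -0.33 to 0.25.

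**Figure D4:**
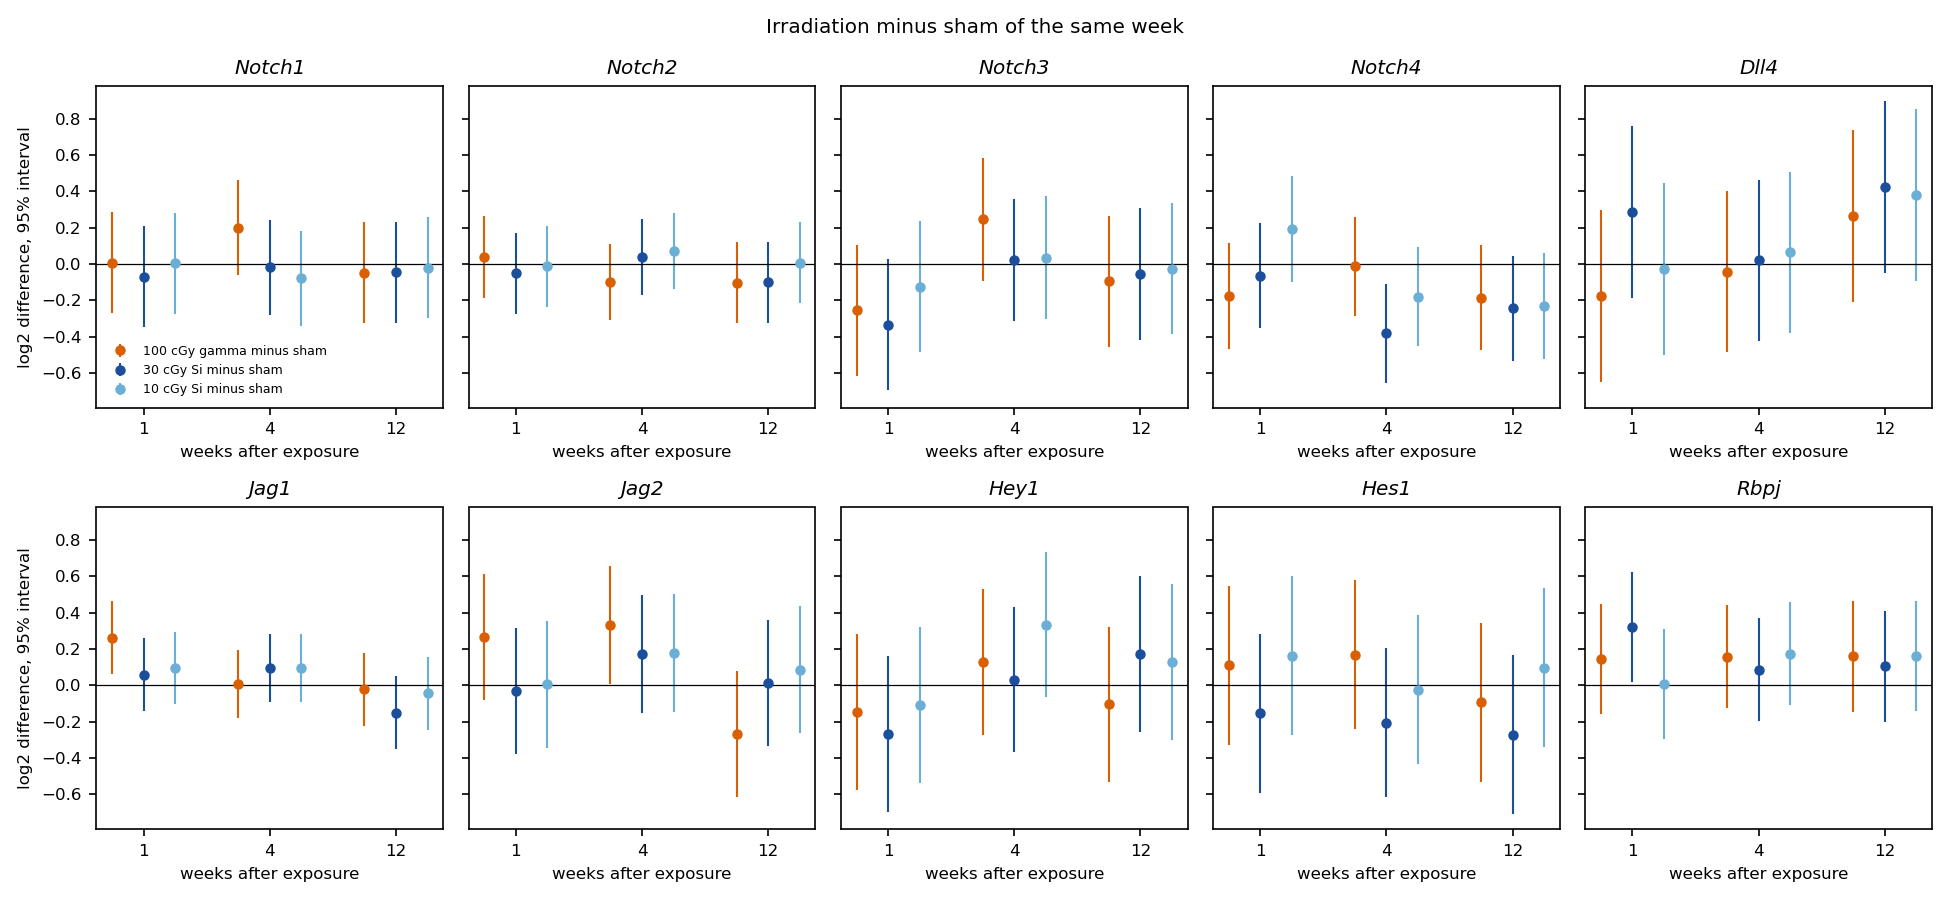
Log2 difference, irradiation minus sham of the same week, with its 95% interval, for the 10 Notch genes (1 panel each), by weeks after exposure. Colours mark 100 cGy gamma, 30 cGy Si and 10 cGy Si. Of the 90 intervals, 4 leave out 0, and none of the 90 differences was called after adjustment over 13174 genes.

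Among the ligands, Jag1 at week 1 had 8.42, 8.41 and 8.43 after gamma rays, against 8.34, 8.14 and 7.99 in sham glands. The groups did not overlap, the gamma arrays lay very close together, and the difference was 0.26 ± 0.098 (adjusted p = 0.493), where 7.82% of all genes passed unadjusted. Jag1 at week 12 had 8.10, 8.13 and 8.04 after 30 cGy Si, against 8.25, 8.17 and 8.30 in sham glands, also without overlap. Jag2 at week 4 had 6.49, 7.06 and 6.56 after gamma rays, against 6.01, 6.31, 6.64 and 6.5 in sham glands. These groups overlapped, 1 gamma array was high and 1 sham array low, and the difference was 0.33 ± 0.16 (adjusted p = 0.798), where 5.56% of all genes passed unadjusted. Without the high gamma array, replicate 2, the Jag2 difference was 0.16 (adjusted p = 0.951), and without the low sham array, replicate 1, it was 0.21. Basal epithelial markers differed by a mean of 0.55 in this comparison, with 0 of 7 called and a mean level of 6.94 to 7.81 after gamma rays and 6.09 to 6.99 in sham glands. With the tissue covariates named above, the Jag2 difference was 0.23. Dll4 had the largest positive difference of the 90, 0.43 ± 0.23 after 30 cGy Si at week 12 (adjusted p = 0.906), with 6.56, 6.10 and 6.47 against 6.00, 5.52 and 6.34 in sham glands. The Dll4 arrays overlapped there, and its interval ran from -0.05 to 0.90.

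Rbpj at week 1 had 8.53, 8.39 and 8.47 after 30 cGy Si, against 8.35, 8.13 and 7.94 in sham glands. The groups did not overlap, and the difference was 0.32 ± 0.15 (adjusted p = 0.398), where 12% of all genes passed unadjusted. Over the 9 comparisons its differences were 0.0064 to 0.32, none of them called. The comparisons of a week share sham arrays, and the first sham array of week 4, at 7.90, and the third of week 1, at 7.94, had the lowest Rbpj values of their weeks. Without them the difference after 30 cGy Si at week 1 was 0.22. In all, 1 member had non-overlapping groups in each of 4 comparisons: Jag1 for gamma rays at week 1, where 14.3% of all genes did not overlap, Rbpj for 30 cGy Si at week 1 (20.7%), Notch4 for 30 cGy Si at week 4 (8.01%) and Jag1 for 30 cGy Si at week 12 (7.21%). In the other 5 there was no such member, against 3.1% to 11.8% of all genes.

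Averaged over the 3 weeks, 0 of 10 members were called against sham for gamma rays (0% of all genes), 30 cGy Si (0.0304%) or 10 cGy Si (0%). The 30 differences ranged from -0.23 to 0.24, and the limit of an interval farthest from 0 was a 1.43-fold difference. Notch4 after 30 cGy Si was the 1 member with an unadjusted p under 0.05, and for gamma rays and 10 cGy Si there was none, against 5.36% and 6.71% of all genes. Set against each other over the 3 weeks, 30 cGy Si and gamma rays differed in 0 of 10 members (0.00759% of all genes called), and so did 30 and 10 cGy Si (0.0228%). In both, Hes1, the repressor that Notch induces in many tissues, was the 1 member with an unadjusted p under 0.05. Hes1 averaged 6.36 ± 0.24, 6.31 ± 0.16 and 6.40 ± 0.20 after 30 cGy Si at weeks 1, 4 and 12, against 6.63 ± 0.32, 6.69 ± 0.22 and 6.58 ± 0.59 after gamma rays (SD, n = 3 each). The difference of 30 cGy Si from gamma rays was -0.27 ± 0.12 (adjusted p = 0.34), where 13.5% of all genes passed unadjusted. From 10 cGy Si, which averaged 6.68 ± 0.084, 6.5 ± 0.15 and 6.77 ± 0.075 at weeks 1, 4 and 12 (SD, n = 3 each), it was -0.29 ± 0.12 (adjusted p = 0.718), where 6.51% passed. Hey1, the other target, had no unadjusted p under 0.05 in any irradiation comparison, with differences from sham of -0.27 to 0.34.

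Of the 35 other pathway genes tested, 0 were called in any irradiation comparison, and 0 to 7 had an unadjusted p under 0.05. The 7 were in gamma rays against sham at week 4, where 5.56% of all genes passed. Numb, an inhibitor that promotes receptor turnover, differed by 0.29 ± 0.080 there, the ligand Dll1 by 0.58 ± 0.22, the glycosyltransferase Lfng by 0.59 ± 0.23 and Spen by 0.28 ± 0.13 (adjusted p = 0.798 each). The median difference of the 35 was 0.15 in that comparison, against 0.14 for the 10 members and 0.04 over all genes. Luminal epithelial markers had a mean level of 8.48 to 9.07 after gamma rays and 8.20 to 8.55 in sham glands there, a mean difference of 0.29 with 9 of 11 above 0 and none called, beside the basal markers given above. Lymphocyte and skeletal muscle markers differed by a mean of 1.10 and -1.36, with none called. The part of these marker levels in the medians was not tested. The first sham array of week 4, among those farthest from the rest, had the lowest luminal and basal levels of these sham glands, 8.20 and 6.09. The medians without it are not given. Aph1b, a gamma-secretase subunit, differed by 0.46 ± 0.14 after 30 cGy Si at week 1 (adjusted p = 0.281), by 0.33 ± 0.14 after gamma rays (adjusted p = 0.576) and by 0.35 ± 0.14 after 10 cGy Si (adjusted p = 0.806), all against the same sham arrays.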

How the data were processed

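Total RNA of whole mammary tissue was measured on 37 arrays. The deposited values are log2 expression values, for which the submitters' processing notes name RMA and oligo; neither versions nor a genome build are given in the sources used here. This table held 35556 probe sets, from 0.817 to 13.8, with array medians of 5.04 to 5.25, and no further normalization was applied. Gene names came from the platform annotation: 21218 had 1 symbol, 1881 several and 12457 were not listed. Genes with a mean above the 30th percentile (log2 4.04) were tested.

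One limma model (version 3.58.1, R 4.3.3; lmFit and eBayes, 25 residual and 3.4 prior degrees of freedom) took all arrays and gave every one of the 12 groups its own mean. The 18 contrasts (two-sided) and 2 F tests were adjusted by Benjamini-Hochberg over 13174 genes; every adjusted p of a gene comes from limma. Correlations used permutation tests with 100000 resamples, adjusted over 120 relations. The fit was also run on simulated data with independent noise for each gene and array. These held neither outlying arrays nor a mix of tissues, so the run says nothing of either. Members, pathway and marker lists were chosen with earlier results of these data known. All members are named; differences are printed with their test where the unadjusted p is under 0.05. Other pathway genes are named where called, and otherwise from the 4 with the smallest p of a contrast; for each member the 3 genes most like it are named. The promoters were read from RefSeq's table. Alternatives covered the filter, probe set choice, quantile normalization, eBayes settings, array weights, a replicate block, tissue and vessel covariates, single contrasts and leaving out arrays.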

Additional observations from a re-analysis of the deposited data

How the results depend on the processing

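None of the 20 member differences with an unadjusted p under 0.05 changed sign under the alternatives run, and no alternative gave a called member in an irradiation comparison. Of the counts of called members recomputed, 501 stayed within 1.5 times the main count and 7 did not. The main count was above 0 only for week 4 against week 1, over all treatments and in sham glands alone. It was 0 in all other comparisons and in the F tests. Many of the 501 are thus counts of 0 that stayed at 0, so their number does not measure how stable the calls were. For week 4 against week 1 over all treatments, 5 members and 25.8% of all genes were called. The count was 2 with the vessel covariate (9.7% of all genes). With irradiated arrays only, an alternative added after the data had been seen, it was 3 (20.9%). It was 5 to 6 when single arrays were left out, for which no share of all genes is given. The cause was not tested. In sham glands alone, 2 members and 5.88% of all genes were called. The count was 1 with the vessel covariate (3.16% of all genes) and 0 in a fit of only these groups, which has fewer arrays (0%). When single arrays were left out it was 1 to 2, again without a share of all genes. It was 1 without sham week 1 replicate 1 or 2, or sham week 4 replicate 1. Notch1 passed in sham glands with array weights. Rbpj passed for week 4 against week 1 over all treatments with tissue covariates (0.20, adjusted p = 0.0347). All 4 receptors and Dll4 stayed called in that fit, where 30.2% of all genes were called. Rbpj also passed when sham week 4 replicate 1 or the second 30 cGy Si array of week 4 was left out. Deviations from group means had a mean correlation of 0.046 over 54 same-numbered pairs of arrays, with 21 above 0.1. Over 117 other pairs it was -0.023, with 38 above 0.1. The labels do not say whether a replicate number marks a pair, and these values cannot settle it. With the replicate number as a block, Notch4 differed by -0.77 between weeks 4 and 1 (adjusted p = 3.83e-08), Notch4 and Notch3 in sham glands by -0.66 and -0.59 (adjusted p = 0.0101 and 0.0448), and no call changed. Of the pooled correlations with marker lists, some turned within weeks. With vascular markers, r was -0.415 for Notch1 at week 1, -0.037 and -0.013 for Notch3 at weeks 1 and 12, and -0.043 for Dll4 at week 4. With mast cell markers, r was 0.024 over deviations from group means and 0.049 at week 12 for Notch3, 0.451 for Dll4 at week 4 and -0.039 for Rbpj at week 4. With mural markers, r for Notch4 was -0.011 over deviations, -0.431 at week 1 and -0.088 at week 4. The number of arrays limits small differences, and the interval of Dll4 was the widest of the 10 for irradiation against sham within a week.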
